A study of Pleurodeles waltl with 10 samples.

Results

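GABA-A receptors are the main fast inhibitory receptors of the vertebrate brain. The subunits described here are 7 genes of that family, GABRA2, GABRA3, GABRA4, GABRA5, GABRB1, GABRB2 and GABRG3, in a transcript catalogue of the Iberian ribbed newt, Pleurodeles waltl. They were chosen by symbol, ignoring case, among the 16770 gene names of the catalogue, so the presence of all 7 was fixed by that choice. The catalogue pairs transcript names with gene names, and it came with 10 single-cell libraries of larval forebrain. Those libraries were collected at stage 55 from animals given a virus named PHP-GFP at stage 37 (2 gene expression and 2 multiplexing oligo libraries), stage 41 (1 of each kind) or stage 51 (2 of each kind). Every group received the virus, and multiplexing oligos are short barcodes that mark pools of cells. The catalogue holds no value for any library, so subunit expression, cell types and the injection stages were not analysed here. Sequencing depth is likewise unknown.

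A GABA-A receptor is a ring of subunits around a chloride channel. The commonest brain receptors combine alpha and beta subunits with a gamma or a delta subunit. GABA binds between beta and alpha subunits, and benzodiazepine drugs bind between certain alpha subunits and a gamma subunit. In mammals the alpha subunit sets much of where a receptor sits and how it responds: GABRA2 and GABRA3 encode synaptic subunits, GABRA4 encodes a subunit that often joins delta in receptors outside synapses, and GABRA5 encodes a largely extrasynaptic subunit that is abundant in hippocampus. The beta subunits, encoded here by GABRB1 and GABRB2, form part of the GABA site and are needed for assembly. GABRG3 encodes a gamma subunit, the class that links receptors to the synapse. These roles are background from mammals and were not measured in the newt.

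Transcripts in the catalogue carry names of 2 forms. Names that start with pt_ also contain HQ_transcript, a form written by long-read software, and names that start with TRINITY_ carry the prefix of a short-read assembler. The unit reported below is the number of distinct transcript names listed under a gene name. It is a count of catalogue entries, not a level of expression, and it has no replicates. Among the 16763 other gene names the median was 6 transcripts, with quartiles of 2 and 14 and a mean of 11.6 (SD 17.3 across names).

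The 7 subunits together had 138 distinct transcripts, of which 124 had pt_ names and 14 had TRINITY_ names. The median was 16 transcripts per subunit, against 6 for the other gene names, and the range ran from 1 for GABRB1 to 45 for GABRA2. Of the 7 subunits, 6 had more than 1 transcript, against 83.0% of the other names. At least 10 transcripts were listed for 5 of the 7 subunits, against 35.1% of the other names. Those 5 were also the subunits above the median of the other names, a level that 45.6% of the other names exceeded. GABRA3, with 6 transcripts, stood exactly at that median. The members were chosen with earlier results of these data known, so these shares are a description and no test was made of them.

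**Figure D1:**
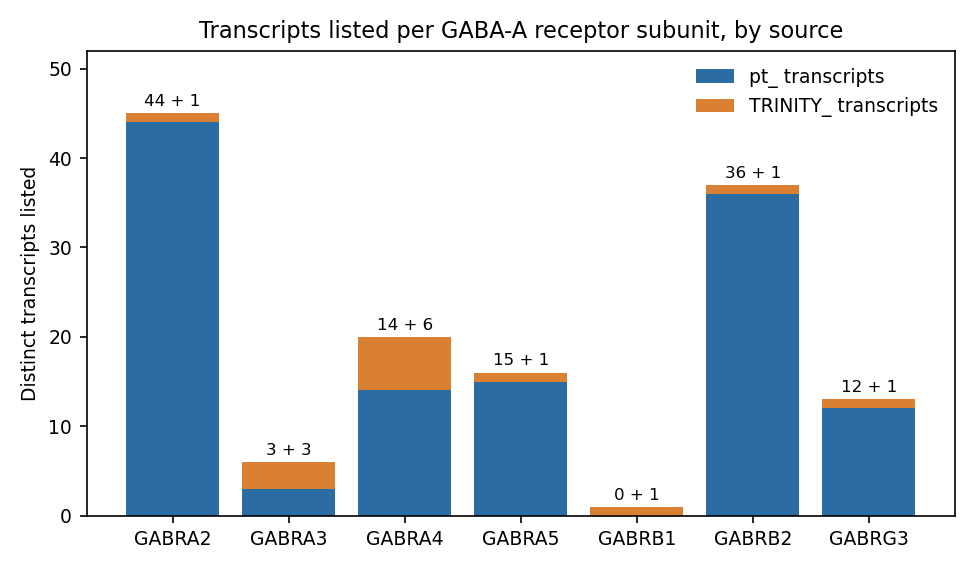
Distinct transcripts listed for each of the 7 subunits (vertical axis, number of transcript names), stacked by the form of the name, with the pt_ and TRINITY_ counts written above each bar. GABRA2 (44 + 1) and GABRB2 (36 + 1) had the most, GABRA4 carried 6 TRINITY_ transcripts, and GABRB1 had a single TRINITY_ transcript and 0 pt_ transcripts.

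The alpha subunits differed widely among themselves. GABRA2 had 44 pt_ transcripts and 1 TRINITY_ transcript. Its total of 45 exceeded that of 95.8% of the other gene names, and GABRA2 alone made up 32.6% of the transcripts of the 7 subunits. GABRA4 had 14 pt_ transcripts and 6 TRINITY_ transcripts, more in total than 82.6% of the other names. GABRA5 had 15 pt_ transcripts and 1 TRINITY_ transcript, more in total than 77.3% of the other names. GABRA3 was the lowest of the 4 alpha subunits described here, with 3 pt_ transcripts and 3 TRINITY_ transcripts. Over the 4 alpha subunits the catalogue listed 87 transcripts, 63.0% of those of the 7 subunits.

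The 2 beta subunits described here lay near opposite ends of the range. GABRB2 had 36 pt_ transcripts and 1 TRINITY_ transcript, more in total than 93.6% of the other names. GABRB1 was listed through a single transcript, TRINITY_DN149771_c0_g1_i1, and had 0 pt_ transcripts. A gene name resting on 1 TRINITY_ transcript alone was also the state of 2780 other names, or 16.6% of them. The gamma subunit GABRG3 was intermediate, with 12 pt_ transcripts and 1 TRINITY_ transcript, more in total than 71.8% of the other names.

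**Figure D2:**
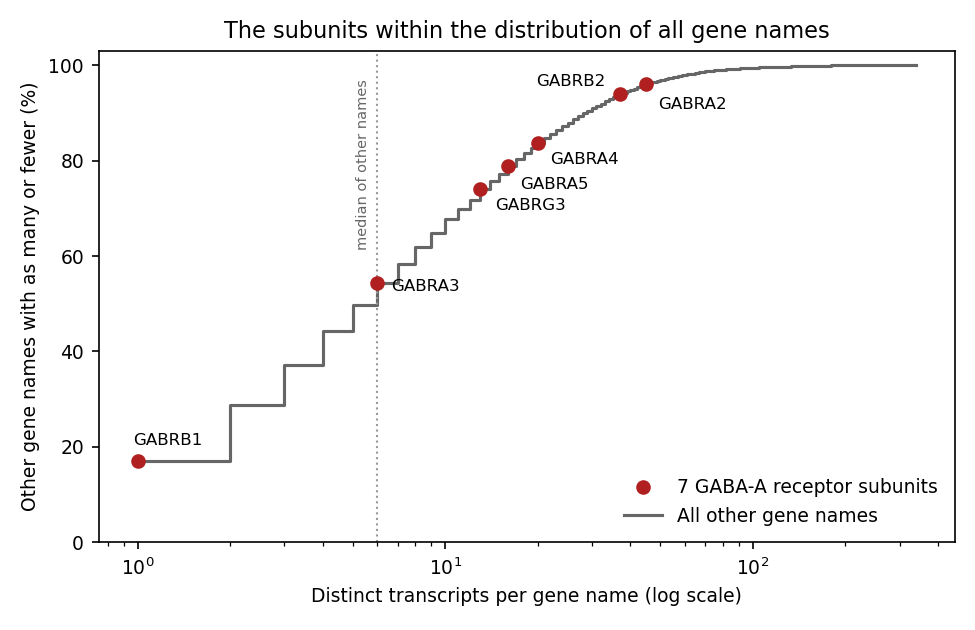
The 7 subunits (red points) on the cumulative distribution of the other gene names (grey line). The horizontal axis is the number of distinct transcripts per gene name on a log scale, the vertical axis is the percentage of other names with as many or fewer, and the dotted line is their median of 6; 5 subunits lie to the right of it, GABRA3 on it and GABRB1 at the lowest value, 1.

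Both forms of name supported 6 of the 7 subunits, against 70.6% of the other gene names. TRINITY_ names made up 10.1% of the subunits' transcripts, against 17.3% for the other names. They were unevenly spread. GABRA2, GABRA5, GABRB1, GABRB2 and GABRG3 each had exactly 1 TRINITY_ transcript, as did 50.9% of the other names. GABRA4 with 6 and GABRA3 with 3 had more, and 3.66% and 21.2% of the other names had at least 6 and at least 3 TRINITY_ transcripts. The source shares of the subunits therefore ranged from 2.22% TRINITY_ names in GABRA2 and 2.7% in GABRB2 to 30.0% in GABRA4 and 50.0% in GABRA3. GABRB1 stood at 100%. GABRA3 and GABRB1 thus had at least as many TRINITY_ as pt_ transcripts, as did 42.5% of the other names. The pooled 10.1% was weighted by GABRA2 and GABRB2, which had 44 and 36 of the 124 pt_ transcripts.

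A TRINITY_ name gives a read cluster (DN), a component (c), an assembled gene (g) and an isoform (i), and transcripts that differ only in the isoform number belong to 1 assembled gene. Of the 6 TRINITY_ transcripts of GABRA4, 4 were isoforms of 1 assembled gene, TRINITY_DN302415_c7_g1, with the isoform numbers 2, 4, 8 and 12. The other 2, TRINITY_DN154394_c0_g1_i5 and TRINITY_DN308723_c11_g2_i1, came from separate read clusters. GABRA4 was thus listed under 3 assembled genes. GABRA3 was also listed under 3 assembled genes with 1 isoform each, of which TRINITY_DN210115_c0_g1_i1 and TRINITY_DN210115_c0_g2_i1 shared a component and TRINITY_DN5218_c0_g1_i1 lay apart. Each of the other 5 subunits had 1 assembled gene, which gave 11 in all. The share of other names listed under at least 3 assembled genes is not given here, so whether 3 is unusual is not shown.

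The transcripts of the subunits were also examined for names shared with other genes. None of the 138 transcripts was repeated or listed under another gene name, and every row of the subunits was written in capitals. Listing under more than 1 name was rare in the whole catalogue, with 45 such transcripts among 194375 distinct transcript and gene name pairs. Its absence here therefore does not set the subunits apart. None of their 11 assembled genes carried a second gene name, against 2.23% of the 28058 assembled genes in the catalogue. Second names were rare at this level too, so their absence does not set the subunits apart either. At the coarser level of read clusters, 3 of the subunits' 10 were shared with another gene, and the share over all read clusters was 13.5%. GABRB2 (TRINITY_DN296816_c4_g1_i2) shared its read cluster with 1 transcript of GABRD, which encodes the delta subunit of the same receptor family. GABRA4 shared 1 read cluster with LRRC3, and GABRG3 (TRINITY_DN303698_c1_g3_i2) shared both read cluster and component with 2 transcripts of RYK. That was 1 of the subunits' 10 components, and 7.04% of all components carried more than 1 gene name. The catalogue holds names and no sequences, so whether reads of 1 subunit could also match another subunit was not tested.

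Further subunits of the family were described from a list of 12, which is not the whole family, and 7 of them were found. Because the list is incomplete, no median is given for it. Among these 14 names, GABRA2 with 45 and GABRB2 with 37 came first, followed by GABRQ (theta subunit) with 27 and GABRD with 22. GABRA4 with 20, GABRA5 with 16, GABRG3 with 13 and GABRG1, another gamma subunit, with 12 formed the middle of the order. GABRE (epsilon subunit) had 7 transcripts, 1 more than GABRA3. The rho subunits GABRR1 and GABRR2 had 2 each. GABRB1 shared the last place with GABRP (pi subunit), and these were the 2 names of the 14 without a pt_ transcript. Among all gene names other than the 7 subunits, 28.1% had no pt_ transcript, so this lack does not set the family apart. With no replicates the spread of these numbers is unknown, so no 2 neighbours in this order can be said to differ beyond it. The 5 names of the list for which no value is given here are GABRA6, GABRB4, GABRG4, GABRR3 and GABRZ.

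In vertebrates many GABA-A subunit genes lie side by side in clusters. The order of genes was read from a RefSeq gene table of the species (assembly aPleWal1.hap1), which was used for names and neighbours only. It held 5 of the 7 subunits by symbol, against 74.2% of all gene names of the catalogue, and GABRA3 and GABRG3 were not matched. GABRB1, GABRA4, GABRA2 and GABRG1 followed each other with 0 other protein-coding genes between them, and their transcript numbers were 1, 20, 45 and 12. This group thus held both the highest and the lowest of the 7 subunits. Gene order is described for this 1 group alone. Sequences of the subunits are not printed because only names and gene order were at hand.

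Other genes of GABA signalling were found in the same catalogue. All 8 genes examined of GABA synthesis, packaging, uptake and breakdown had transcripts of both sources and at least 10 transcripts. Of the other gene names, 70.6% had both sources and 35.1% had at least 10. Among the 8 genes ABAT, the enzyme that breaks down GABA, had the most with 58, and GAD2, a GABA-synthesising enzyme, had the fewest with 11. The metabotropic GABA-B receptor subunits GABBR1 and GABBR2 had 37 and 47. Of 24 genes that anchor, assemble or traffic GABA-A receptors, 22 were found with a median of 15.5. At least 10 transcripts were listed for 14 of the 22, against the same 35.1%. Gephyrin (GPHN), the scaffold beneath inhibitory synapses, led this list with 72, and HAP1, a trafficking adaptor, had 1. The 4 genes of neuronal chloride balance, which determines the direction of the current through GABA-A receptors, had a median of 33.5. They ran from 8 for the carbonic anhydrase CA7 to 143 for the chloride importer SLC12A2. The 7 subunits' median of 16 lay near the 15.5 of the anchoring, assembly and trafficking list. It was below the 33.5 of the chloride balance list and below both GABA-B subunits. No test of a difference was made.

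**Figure D3:**
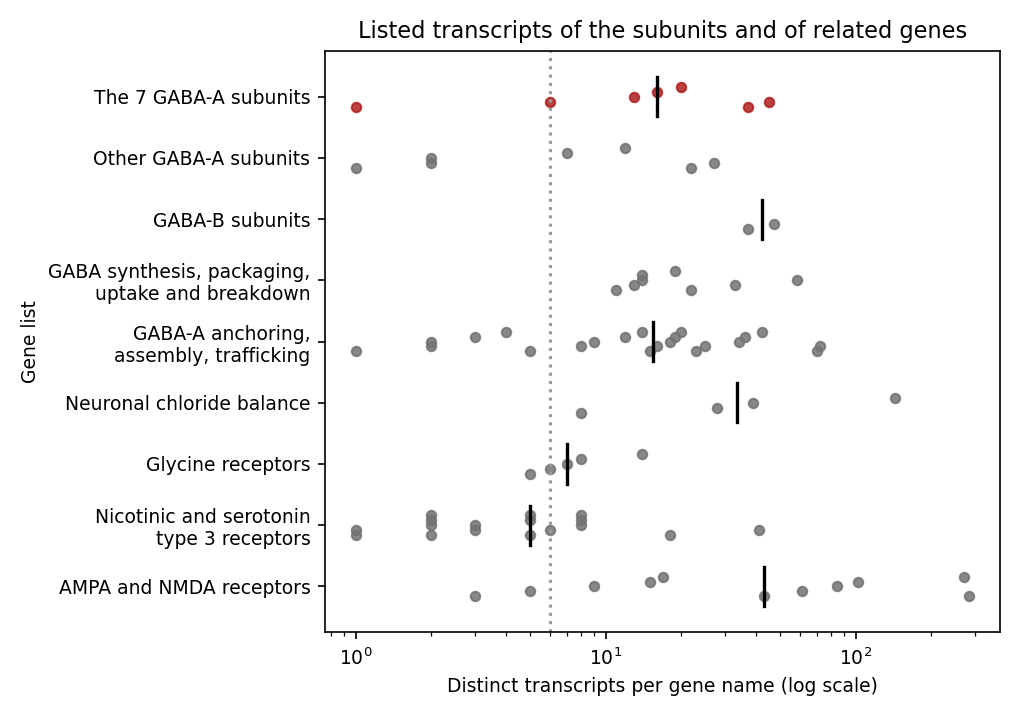
Distinct transcripts per gene name (horizontal axis, log scale) for the 7 subunits in red and for 8 lists of related genes in grey, each point 1 gene, with a black bar at the median of each list except the other GABA-A subunits and the synthesis list, which are not reported in full, and a dotted line at 6, the median of the other gene names. The 7 subunits have a median of 16, glycine receptor genes 7, nicotinic and serotonin type 3 receptor genes 5, and AMPA and NMDA receptor genes 43; the vertical offset of points within a list has no meaning.

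Each pt_ name ends in a serial number, which ran from 0 to 289998 over the catalogue with a median of 138877. What orders these numbers is not stated in the sources used here, and they were examined after their values had been seen. The ranges of most subunits overlapped, and GABRB2 spanned 93.0% of the numbering. All 14 pt_ transcripts of GABRA4 fell between 250713 and 287613. Their SD of 9580 was smaller than that of all but 0.28% of the 4997 other names with at least 10 pt_ transcripts, whose median SD was 60700. The other subunits with as many did not stand out in this way, with 10.1% of those names below GABRG3, 11.2% below GABRA5, 43.7% below GABRA2 and 78.6% below GABRB2. The 3 pt_ transcripts of GABRA3 lay at the other end, between 18494 and 65481. GABRA5 had 14 of 15, GABRG3 11 of 12 and GABRA2 37 of 44 above the catalogue's median. How often the pt_ transcripts of other names lie mostly on the same side of that median was not tested. The SD of all serial numbers was 84600, above the median SD of 60700 within the other names with at least 10 pt_ transcripts. Numbers thus tended to lie closer together within a name, and the counts above the median are not shown to set these subunits apart. GABRB2 had its widest gap between 122436 and 199761, with 30 transcripts at or below it and 6 at or above it. Any subunit can be cut at its widest gap, and gaps of other names were not examined. Separate groups are therefore not shown. Over the 7 subunits, 82 of 124 pt_ transcripts lay above the catalogue's median. GABRA2 alone gave 37 of the 82, whereas GABRA3 gave 0 of its 3 and GABRB2 6 of its 36. The sum therefore does not describe each subunit.

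**Figure D4:**
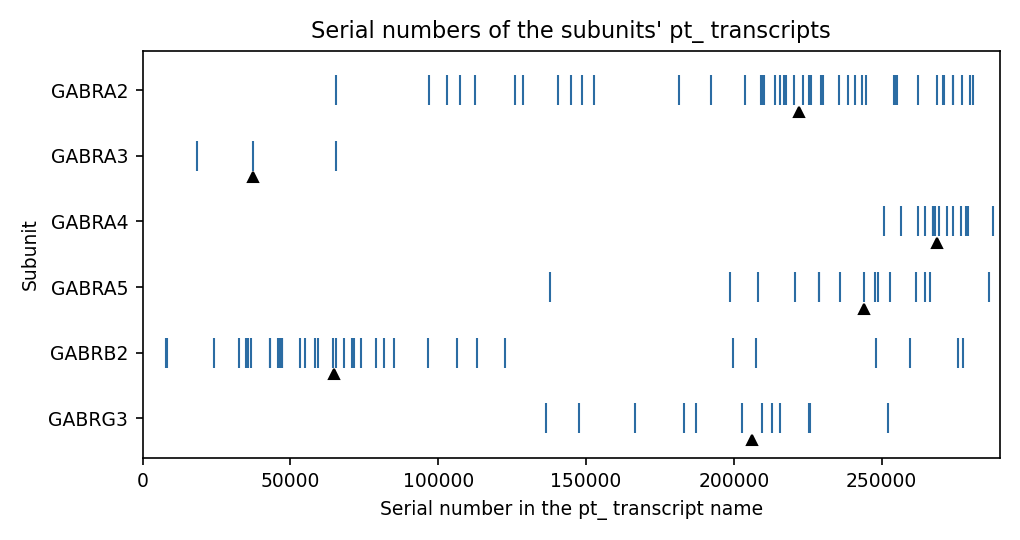
Serial number at the end of each pt_ transcript name (horizontal axis, up to the highest in the catalogue) for the 6 subunits that have such transcripts. Each blue tick is 1 transcript and each triangle a subunit's median. GABRA4's 14 transcripts crowd the upper end, GABRA3's 3 lie at the lower end, and GABRB2 has 30 below and 6 above its widest gap.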

How the data were processed

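The deposited table pairs transcript names with gene names and holds no measured value; its columns, per the file headers, are transcript and gene. Of these columns, 0 hold values of a library. The submitters' processing notes name Salmon 1.6.0 and alevin, without their role for this table; the assembly, filtering and naming of the transcripts are not given in the sources used here. Forebrain tissue was dissociated with papain for 30 min, per the labels' protocols. The oligo barcode table was not used.

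Fields were split on white space and gene names were compared in upper case. Of 194406 rows, 160687 began with pt_ and 33716 with TRINITY_, and 3 construct rows were left out. Distinct transcripts were counted per gene name. Counting was checked on 2000 simulated gene names, and all 2000 were recovered. Python 3.11.15, pandas 2.3.3, numpy 2.4.6 and matplotlib 3.10.9 were used. RefSeq symbols made of LOC and a number were not matched.

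The 7 subunits and the 8 gene lists were chosen with earlier results of these data known. Genes named are the 7 subunits, the other GABA-A subunits listed, the genes with the most and fewest transcripts of the lists described, and genes sharing a TRINITY_ component or read cluster with a subunit. Some genes of these lists are not reported here. No test was made.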

Additional observations from a re-analysis of the deposited data

How the results depend on the processing

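The 7 results on the subunits were recomputed under 16 settings, which gave 34 values, and 29 of these stayed within 1.5 times the reported value. Many of the 29 could not move, or could move little. Counts of 5 or 6 among 7 subunits could fall beyond 1.5 times but could not rise that far. No row of the subunits was repeated, listed under another name or written other than in capitals. Counting every row, or only transcripts under a single gene name, therefore changed nothing. Names as written could change only the comparison with the median of the other names. The 5 values beyond 1.5 times all came from TRINITY_ transcripts alone, which by construction leave out the pt_ transcripts. They gave 14 transcripts in all and a median of 1 per subunit. The median of the other names was then also 1, so the subunits' median did not exceed it. More than 1 transcript was listed for 2 subunits, which were the 2 above that median, and at least 10 for 0. Among the other names 50.9% had exactly 1 TRINITY_ transcript and 3.66% had at least 6. The share with at least 10 is not given here. From pt_ transcripts alone the subunits had 124 transcripts and a median of 14. With gene names as written, the median of the other names was 5 and GABRA3 passed it, so that 6 subunits lay above it. Against names with both sources (median 9) or RefSeq symbols (median 7), 5 did. The shares of other names above these medians are not given here, so these counts cannot be set against them. Leaving out each subunit in turn gave medians from 14.5 to 18, a range set by the middle totals of 13, 16 and 20. No paired analysis was possible because the table holds no values per library, and for the same reason no library could be left out.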

Other observations

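Glycine receptor genes, and nicotinic and serotonin type 3 receptor genes, had lower medians of listed transcripts than the 16 of the 7 GABA-A subunits, and the excitatory glutamate receptors had a higher one. The 7 other GABA-A subunits described above, an incomplete list, ran from 1 to 27. The comparison therefore covers the 7 chosen subunits and is not shown for the whole family. These values are a description of name counts, with no test. All 5 glycine receptor genes were found with both sources, as were 70.6% of the other gene names. The glycine receptor genes had a median of 7 transcripts, from 5 for GLRA3 to 14 for GLRA2. Of 19 nicotinic acetylcholine and serotonin type 3 receptor genes 17 were found, with a median of 5, and 9 of them had 0 pt_ transcripts, the state seen in 1 of the 7 GABA-A subunits and in 28.1% of all other gene names. In this list CHRNB2, a neuronal nicotinic subunit, had 41, and CHRNA9 and CHRNB1 had 1 each. The 11 AMPA and NMDA receptor genes had a median of 43, from 3 for GRIN2C, which had 0 pt_ transcripts, to 284 for GRIN1.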
